A study of Mus musculus with 10 samples.

Results

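Retinoic acid is the active form of vitamin A. Described here, in cultured mouse marrow stromal cells, are 9 genes listed for its synthesis, carriage, sensing or breakdown. They are Aldh1a1, Aldh1a2, Aldh1a3, Aldh1a7, Rbp4, Crabp1, Crabp2, Rarb and Cyp26b1, which are 9 of 19938 genes with a named probe set. They were listed by symbol, and the rule took for each gene the probe set with the highest mean over the 10 arrays. Each gene had only 1 probe set under its own symbol, so that choice removed nothing. The genes were chosen partly on measured values: Aldh1a2 was already known to be highest in MSC I and Crabp1 in MSC II, which are 2 of the stromal cell preparations compared. Those differences are given as descriptions with no test, and the tests on the other members are not independent evidence that the pathway differed.

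The cells were bone marrow mesenchymal stromal cells, adherent fibroblast-like cells that can form bone and fat, from female C57BL/6J mice aged 6 to 8 weeks. They were grown in a commercial murine stromal cell medium with antibiotics and studied at passage 16 to 17. The 10 arrays fell into 5 preparations of 2 replicates, MSC I to MSC V, and no treatment, genotype or control separated them. Nothing says that replicates were grown separately, so a p-value here reflects only array-to-array spread, possibly technical, and the few arrays limit the precision. Values are log2 expression levels, so a difference of 1 is a fold of 2. Array medians lay between 6.45 and 6.63, and a level under the median of the whole table, 6.55, is called low here because no detection calls were used.

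Cells take up retinol, which travels in blood bound to the carrier RBP4, and oxidise it first to retinal and then to retinoic acid. The second, irreversible step is made by retinaldehyde dehydrogenases of the ALDH1A family. CRABP1 and CRABP2 bind retinoic acid inside the cell, the RAR receptors pair with RXR on DNA to switch genes on, and the CYP26 enzymes destroy the ligand. Rarb and Cyp26a1 are textbook target genes of the receptors, which bind paired 6-base half-sites spaced by 1, 2 or 5 bases.

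The upstream sequences of Rarb and Cyp26a1 are shown because these were the only genes of the retinoid lists whose promoter window held such a pair with a 5-base spacer. The windows are those of RefSeq on GRCm38.p6, running from 250 bases before to 50 bases after each start, and were found for 7 of the 9 members and for 45 of the 66 members and listed retinoid genes. The half-sites searched were AGGTCA, its variant AGTTCA, and the related spellings GGGTCA as well as GGTTCA, as any 2 of them in the same direction, on both strands. The Rarb stretch is chr14:16575477-16575726 on the minus strand and the Cyp26a1 stretch is chr19:37697558-37697807 on the plus strand. Each is the 250 bases before the start, 5′ to 3′, with the matching pair in capitals.
Rarb: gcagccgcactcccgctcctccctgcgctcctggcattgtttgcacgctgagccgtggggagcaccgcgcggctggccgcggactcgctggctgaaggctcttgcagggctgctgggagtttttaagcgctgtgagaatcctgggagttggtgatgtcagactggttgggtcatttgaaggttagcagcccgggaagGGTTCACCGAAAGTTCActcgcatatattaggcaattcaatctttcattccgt
Cyp26a1: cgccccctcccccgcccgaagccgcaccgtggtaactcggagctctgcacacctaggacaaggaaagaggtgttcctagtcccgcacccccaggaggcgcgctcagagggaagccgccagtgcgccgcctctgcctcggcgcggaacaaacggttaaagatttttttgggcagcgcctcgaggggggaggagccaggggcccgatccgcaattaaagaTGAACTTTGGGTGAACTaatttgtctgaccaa
In Rarb the pair lay 53 to 37 bases before the start, and in Cyp26a1 it lay on the opposite strand, 32 to 16 bases before the start. The Rarb start used lies inside the gene, which spans chr14:16430839-17082331. Neither overlapped a pair with another spacer. A 5-base spacer was found in 32 of 32851 windows (0.0974%), a 1-base spacer in 73 (0.222%) and a 2-base spacer in 88 (0.268%). Among listed genes the 1-base spacer was found in Bco1, and no window of another member held any of these pairs. A match is a description of these letters and says nothing about binding in these cells.

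MSC I had the highest mean level for Aldh1a2, Aldh1a7, Rbp4 and Rarb and the lowest for Crabp2. Both of its arrays stood above the other 8 in those 4 tested genes (15.1% of all tested genes) and below them in Crabp2 (17.2%). The binding protein genes Crabp1 and Crabp2 were instead highest in MSC II. Of the 9 genes, 7 passed the low-value filter of at least 2 arrays above 6.55, and Aldh1a3 and Cyp26b1 did not. In limma's moderated F test over the 5 preparations, with Benjamini-Hochberg adjustment over 10971 genes and a range of means of at least 1 log2, 6 of the 7 differed. The same rule called 29.1% of all tested genes. Rarb passed the filter through MSC I alone, and the choice of members used 2 of these patterns, so nothing is read from this count.

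Each preparation was also compared with the mean of the other four under the same call rule. In MSC I 4 members were higher (7.73% of all tested genes were) and 1 was lower (5.22%). In MSC II 2 were higher (2.45%) and 2 lower (2.69%), and in MSC III 1 was higher (1.31%) and 1 lower (0.957%). In MSC IV 4 were lower (7.70%), where 3.29% of all tested genes were higher, and in MSC V 1 was higher (2.11%), where 1.44% were lower. These counts include Aldh1a2 in MSC I and Crabp1 in MSC II, which the choice of members used, and Rarb and Aldh1a7, which were tested only because of their MSC I arrays, so nothing is read from them. The 5 comparisons share arrays, and a gene that is high in MSC I is pushed towards lower calls elsewhere. Between pairs, MSC I differed from MSC II, III, IV and V in 14.9%, 11.3%, 20.3% and 10.5% of all tested genes. MSC II differed from MSC III, IV and V in 3.02%, 9.06% and 5.56%, MSC III from MSC IV and V in 7.99% and 2.07%, and MSC IV from MSC V in 10.9%.

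**Figure D1:**
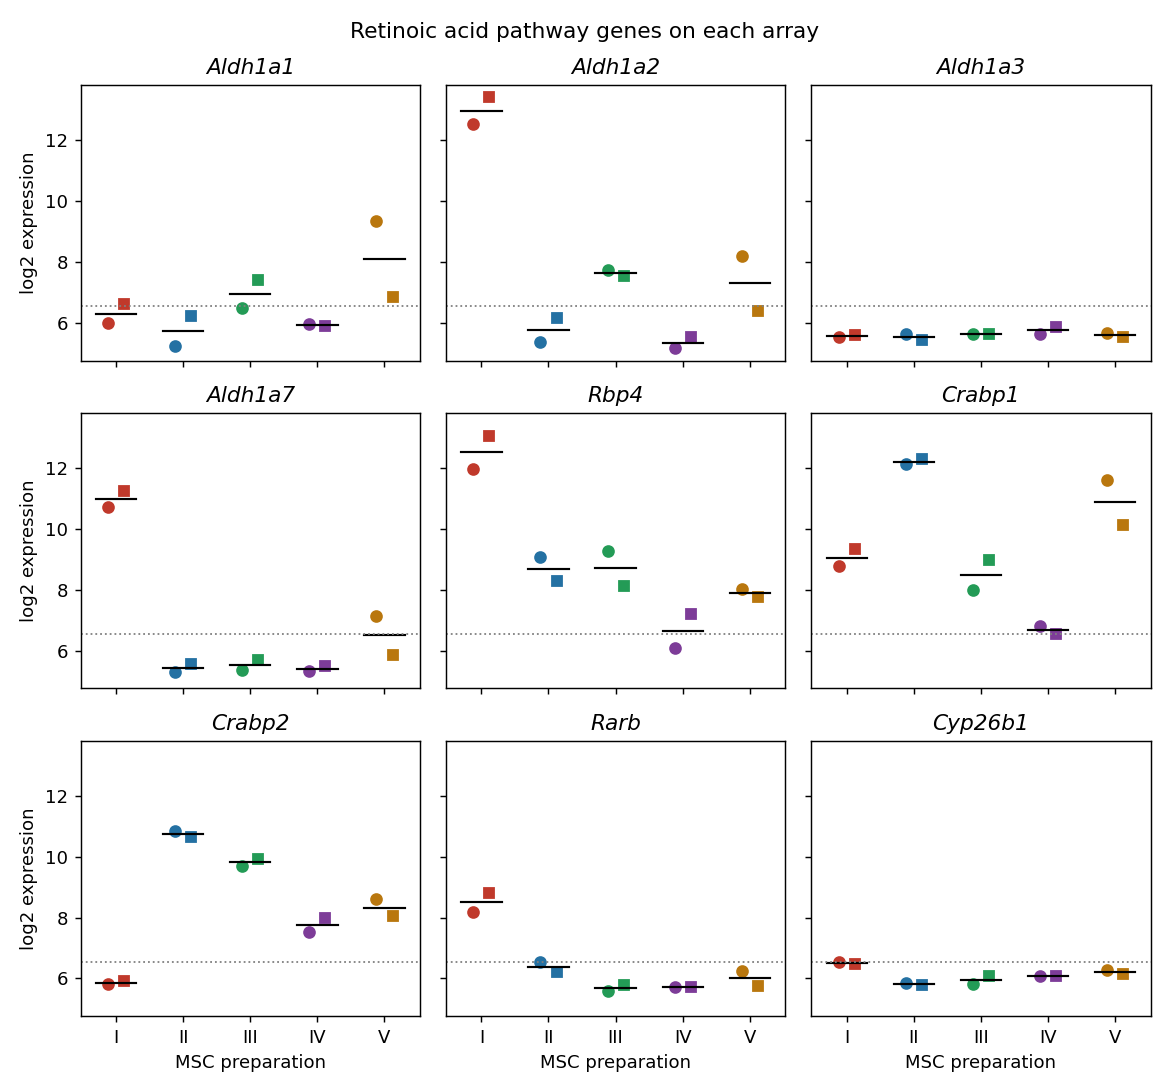
Log2 expression of the 9 genes (y axis) in MSC I to MSC V (x axis), with replicate 1 as a circle, replicate 2 as a square, the mean of both as a black bar and the low level of 6.55 as a dotted line. Both MSC I arrays lie above all others for Aldh1a2, Aldh1a7, Rbp4, Rarb and Cyp26b1, and below all others for Crabp2.

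Among the enzymes was the member of widest range. Aldh1a2, the main retinaldehyde dehydrogenase of the early embryo, was at 12.55 and 13.41 in MSC I. It was at 5.36 and 6.15 in MSC II, 7.73 and 7.54 in MSC III, 5.17 and 5.52 in MSC IV, and 8.21 and 6.39 in MSC V. Both MSC I arrays were far above the rest, both MSC II and both MSC IV arrays were low, and the MSC V arrays straddled the low level.

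The range of preparation means of Aldh1a2 was 7.63 log2, and MSC I exceeded the mean of the other four by 6.47 ± 0.45 log2 (SE from the fit), a fold of 88.7. In order, MSC I exceeded MSC III by 5.35 ± 0.57. The next neighbours, MSC III over MSC V (0.33), MSC V over MSC II (1.55, adjusted p = 0.108) and MSC II over MSC IV (0.41), were not separated. Between more distant pairs, MSC III minus MSC IV was 2.29 (limma adjusted p = 0.0354) and MSC IV minus MSC V -1.96 (adjusted p = 0.0428). Neither was called when genes of low value were kept (adjusted p = 0.0662 and 0.0789). MSC II minus MSC III (-1.88, adjusted p = 0.0944) was not called. Without MSC V replicate 2, MSC II minus MSC V was -2.46. The MSC V arrays were at 8.21 and 6.39, so that size rested on the array kept. In a fit of MSC II to MSC V alone, chosen after seeing the data, Aldh1a2 still ranged over 2.29 log2 (adjusted p = 0.0476), where 15.5% of all tested genes were called.

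Aldh1a7 and Aldh1a1 are close relatives that lie next to each other on chromosome 19, with no other protein-coding gene between them. Their last 100 bases before the start are shown for the best matching pair of starts, although probes read the transcripts and not these bases. The Aldh1a1 stretch is chr19:20601868-20601967 on the plus strand, from the second of its 2 starts in the table, and the Aldh1a7 stretch is chr19:20727557-20727656 on the minus strand. They come from RefSeq on GRCm38.p6, 5′ to 3′, with the bases that differ in capitals.
Aldh1a1: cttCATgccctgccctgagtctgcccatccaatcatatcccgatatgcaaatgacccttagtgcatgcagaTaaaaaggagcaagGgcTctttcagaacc
Aldh1a7: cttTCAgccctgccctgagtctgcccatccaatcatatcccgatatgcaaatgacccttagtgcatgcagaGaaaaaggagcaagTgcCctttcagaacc
The stretches shared 94 of 100 bases without gaps. Before the other Aldh1a1 start, 30 of 100 bases were shared with Aldh1a7, so the likeness holds for the printed pair only. Probes to closely related genes can bind the transcript of the other, and the probe sequences were not used here, so their separate levels are uncertain.

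The arrays nevertheless gave the neighbours different patterns. Aldh1a7, an aldehyde dehydrogenase of rodents, was at 10.73 and 11.24 in MSC I. It was between 5.30 and 5.71 on every array of MSC II, III and IV, and at 7.15 and 5.85 in MSC V. Its MSC I arrays were separate from all others, and 1 further array, MSC V replicate 1, was above the low level. Whether the Aldh1a7 enzyme oxidises retinal was not tested here.

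Aldh1a7 exceeded the other four by 5.27 ± 0.31 log2 in MSC I (SE from the fit, a fold of 38.5). MSC I exceeded the next preparation, MSC V, by 4.48 ± 0.39, and MSC V, III, II and IV were not separated from their neighbours. Without MSC I the gene did not pass the filter, so the MSC I differences are given with no test.

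Aldh1a1, which oxidises retinal and other aldehydes in many adult tissues, was at 5.98 and 6.63 in MSC I, 5.23 and 6.21 in MSC II, and 6.48 and 7.41 in MSC III. It was at 5.96 and 5.90 in MSC IV, and at 9.36 and 6.86 in MSC V. The highest array was MSC V replicate 1, and the other MSC V array lay below an array of MSC III. The range of means was 2.38 log2 and was not called (adjusted p = 0.109), and no neighbours in the order were separated. In MSC I it differed from the other four by -0.37 ± 0.59 (adjusted p = 0.637). The range was 3.63 without MSC V replicate 2 and 1.22 without MSC V replicate 1. Its size thus depended on which MSC V array was kept.

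Aldh1a3, the third enzyme of the family, lay between 5.44 and 5.86 on all 10 arrays and was low throughout. Fitted without the filter, its range of means was 0.21 log2 (adjusted p = 0.5).

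Rbp4, the carrier of retinol in blood, which fat cells also secrete, was at 11.99 and 13.05 in MSC I. It was at 9.08 and 8.28 in MSC II, 9.28 and 8.14 in MSC III, 6.08 and 7.20 in MSC IV, and 8.02 and 7.77 in MSC V. Both MSC I arrays were the highest and both MSC IV arrays the lowest. The difference of MSC I from the other four was 4.54 ± 0.43 log2 (adjusted p = 0.000216, a fold of 23.2). MSC IV was lower than the other four by this test (-2.81 ± 0.43, adjusted p = 0.00294). MSC I exceeded the next, MSC III, by 3.81 ± 0.54 (adjusted p = 0.00254), while MSC III, II, V and IV were not separated from their neighbours. Between more distant pairs, MSC II and MSC III exceeded MSC IV by 2.04 and 2.07 (limma adjusted p = 0.0389 and 0.0424). Neither was called when genes of low value were kept (adjusted p = 0.074 and 0.0764). MSC III over MSC V (0.82) was not called. With MSC I left out of the fit, Rbp4 ranged over 2.07 log2 and was not called (adjusted p = 0.0536).

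The intracellular binding proteins had other patterns than Aldh1a2 and Aldh1a7. Crabp1, which carries retinoic acid towards its breakdown, was at 8.78 and 9.34 in MSC I and at 12.12 and 12.30 in MSC II. It was at 7.98 and 8.99 in MSC III, 6.80 and 6.55 in MSC IV, and 11.62 and 10.13 in MSC V. MSC II was the highest on both arrays, MSC V came next, and MSC IV was the lowest on both.

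MSC II exceeded the other four by 3.44 ± 0.39 log2 in Crabp1 (a fold of 10.8), and MSC IV was lower than the other four (-3.48 ± 0.39, adjusted p = 0.000812, a fold of 11.2). MSC I was not separated from the other four (-0.50 ± 0.39, adjusted p = 0.331). In order, MSC II over MSC V was 1.34, MSC V over MSC I 1.81 (adjusted p = 0.0344), MSC I over MSC III 0.58 and MSC III over MSC IV 1.81 (adjusted p = 0.0475). Neither of those 2 called steps passed when genes of low value were kept (adjusted p = 0.0635 and 0.085) or with an array of MSC I left out, whichever it was. The first also missed the threshold without either array of MSC IV (adjusted p = 0.0512 for each) or without MSC V replicate 1 (adjusted p = 0.134). Without that array MSC II exceeded MSC V by 2.08. The second also missed it without either array of MSC II, MSC III or MSC IV. In the fit of MSC II to MSC V alone, the range of Crabp1, again MSC II over MSC IV, was 5.54 log2.

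Crabp2, which delivers retinoic acid to the receptors, was at 5.80 and 5.92 in MSC I, 10.85 and 10.64 in MSC II, 9.70 and 9.94 in MSC III, 7.54 and 7.98 in MSC IV, and 8.63 and 8.04 in MSC V. MSC I was low on both arrays, and the arrays of MSC II and MSC III were the highest and did not overlap each other. MSC I was 3.30 log2 below the other four (-3.30 ± 0.18, adjusted p = 1.07e-05, a fold of 9.88), and MSC II was 2.80 ± 0.18 above (adjusted p = 0.000173).

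The order of Crabp2 ran from MSC II over MSC III (0.92, adjusted p = 0.0581), MSC III over MSC V (1.49, adjusted p = 0.0166), and MSC V over MSC IV (0.57, adjusted p = 0.104) to MSC IV over MSC I (1.90, adjusted p = 0.000638). The step of MSC III over MSC V was no longer called without either MSC III array (adjusted p = 0.0849 and 0.102) or without MSC V replicate 2 (adjusted p = 0.0777). MSC III exceeded the other four by 1.65 ± 0.18 (adjusted p = 0.0034), a call lost without its replicate 2 (adjusted p = 0.0666). Among MSC II to MSC V alone the range was 2.99 log2 (adjusted p = 0.00164). The binding protein genes thus shared their highest preparation but not their lowest, which was MSC IV for Crabp1 and MSC I for Crabp2.

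Rarb, the receptor gene whose upstream pair is shown above, was at 8.20 and 8.81 in MSC I and at 6.53 and 6.22 in MSC II. It was at 5.60 and 5.79 in MSC III, 5.72 and 5.71 in MSC IV, and 6.26 and 5.76 in MSC V. Only the MSC I arrays were above the low level. MSC I exceeded the other four by 2.56 ± 0.19 log2 (a fold of 5.89) and the next preparation, MSC II, by 2.13 ± 0.24, given with no test because the gene was admitted by those arrays. The other neighbours were not separated. Without either MSC I array the gene failed the filter and was not tested.

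Cyp26b1, a retinoic acid hydroxylase, was low on every array by the unrounded median, with 6.55 and 6.46 in MSC I against 5.80 to 6.27 elsewhere. Both MSC I arrays were the highest. Fitted without the filter, MSC I minus the other four was 0.49 ± 0.075 log2 (adjusted p = 0.00426), which is under the minimum of 1 and was not called.

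**Figure D2:**
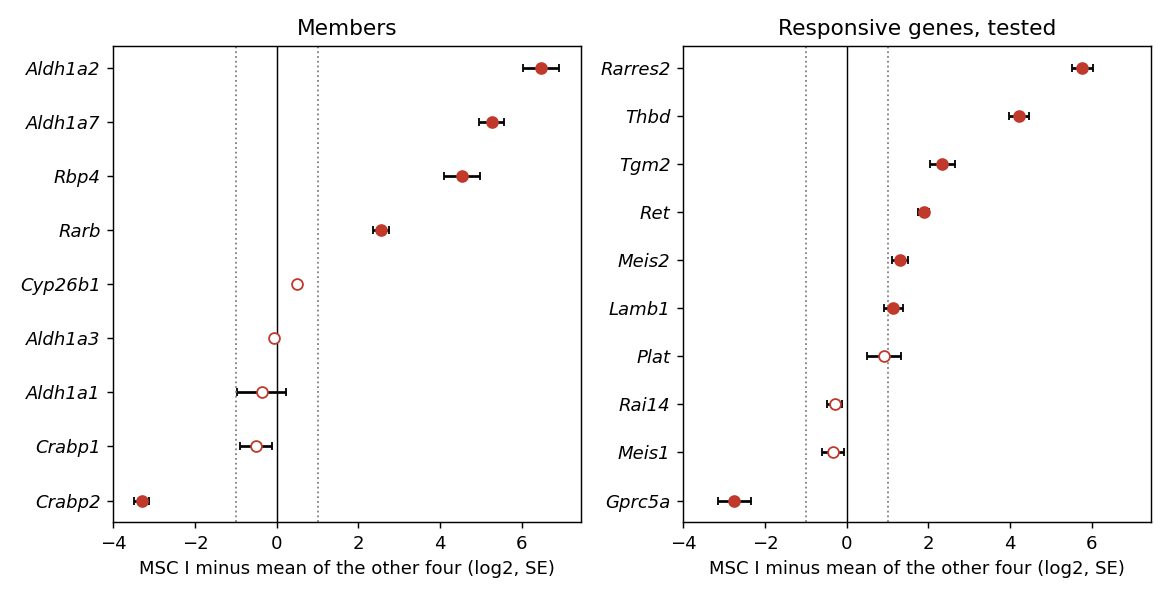
MSC I minus the mean of the other four preparations in log2 (x axis), for the 9 genes and for the tested retinoic acid responsive genes, with SE bars, filled points for called genes and dotted lines at a difference of 1 in either direction. Aldh1a3 and Cyp26b1 come from the fit without the low-value filter. The points of Aldh1a2, Aldh1a7, Rarb, Rarres2 and Ret are filled by the same rule. Nothing is read from that fill, and their differences are descriptions only. Aldh1a2 at 6.47 and Rarres2 at 5.77 lie farthest to the right, and Crabp2 at -3.30 and Gprc5a at -2.75 farthest to the left.

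The arrays of MSC V disagreed with each other in several of these genes. Replicate 1 exceeded replicate 2 by 2.50 log2 in Aldh1a1, 1.82 in Aldh1a2, 1.49 in Crabp1 and 1.30 in Aldh1a7. It was the higher array in all 9 genes, with differences from 0.12 (Aldh1a3) to 0.59 (Crabp2) in the others. Of the 7 tested members 4 exceeded 1 log2 in this direction, as did 2.43% of all tested genes. In Rbp4 the arrays also parted by over 1 log2 in MSC I (-1.06), MSC III (1.14) and MSC IV (-1.13), and in Crabp1 in MSC III (-1.01). The median absolute difference between arrays over all tested genes was 0.16 to 0.21 log2 in the 5 preparations.

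**Figure D3:**
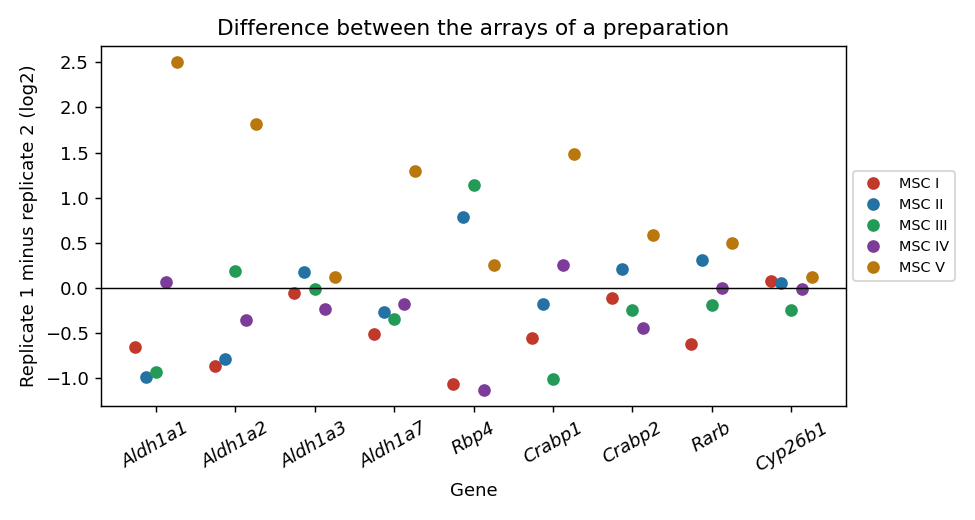
Difference of replicate 1 minus replicate 2 in log2 (y axis) for each of the 9 genes (x axis), with 1 coloured point per preparation. The MSC V point is the highest of the 5 for Aldh1a1, Aldh1a2, Aldh1a7, Crabp1, Crabp2, Rarb and Cyp26b1.

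Genes with patterns like those of the 3 members of widest range were named by Pearson's r over the 10 arrays, which are 5 preparations measured on 2 arrays each, among 3617 genes with a range of at least 1 log2. Aldh1a2 was most like Itih5 (r = 0.983), a subunit of the inter-alpha-trypsin inhibitor family, Fzd7 (r = 0.981), a Wnt receptor, and Rgs4 (r = 0.981), a regulator of G protein signalling. Rbp4 was most like the malic enzyme Me3 (r = 0.974), Map7d3 (r = 0.970) and the RNA sensor Ifih1 (r = 0.964). Aldh1a7 was most like the homeobox gene Alx1 (r = 0.994), Stard8 (r = 0.991) and the metalloprotease Adam12 (r = 0.989). Above r = 0.9 there were 258, 144 and 271 genes for Aldh1a2, Rbp4 and Aldh1a7, so a pattern set by MSC I was common.

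The other genes of retinoid metabolism, carriage, reception and response were taken from lists of 57 genes, of which 51 had a probe set under their symbol alone. The remaining 6 were not analysed here. Of the 51, 32 were tested and 17 differed over the preparations (53.1%, against 29.1% of all tested genes), with a median range of 1.44 log2 against 0.75 for all genes. MSC I had the highest mean for 11 of the 17 and the lowest for 5, and Rdh5, Rarres2 and Ret passed the filter through 1 preparation alone. Against the other four, MSC I had 10 genes higher (7.73% of all genes) and 3 lower (5.22%). With MSC I left out of the fit, 8 of 30 differed, against 15.5% of all genes. The lists were chosen with earlier results of these data known, so nothing is read from these counts or from those of the single lists below. The p-values given below for listed genes are likewise not independent evidence that the pathway differed.

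Of the 16 genes listed for making or interconverting retinol and retinal, 11 were tested. Over the preparations 5 differed, where 29.1% of all tested genes did, and 1 of the 5, Rdh5, passed the filter through MSC IV alone. Dhrs4, a retinal reductase, was at 11.17 and 10.48 in MSC I and between 8.80 and 10.15 elsewhere (1.47 ± 0.23 against the other four, adjusted p = 0.00231). Adh7, an alcohol dehydrogenase that oxidises retinol, was at 6.48 and 7.43 in MSC I and between 8.75 and 11.02 elsewhere (-3.11 ± 0.38, adjusted p = 0.000688). Rdh10, the retinol dehydrogenase needed in the embryo, was at 8.92 and 9.49 in MSC I and overlapped MSC II. Its range of 1.39 log2 was called (adjusted p = 0.0229), but its MSC I difference of 0.96 ± 0.22 was under the minimum. That range was not called without either array of MSC IV (adjusted p = 0.0522 and 0.0703) or with MSC I replicate 2 left out (adjusted p = 0.0699), and the MSC I difference became a call with replicate 1 of MSC I (1.25, adjusted p = 0.0205) or of MSC II (1.06, adjusted p = 0.00394) left out.

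Adh1, another retinol-oxidising enzyme, was called higher in MSC I (1.54 ± 0.46, adjusted p = 0.0308), but its arrays there were 8.43 and 6.51 and overlapped MSC II and MSC III. With replicate 1 of MSC I left out its difference was 0.58 (adjusted p = 0.285). The call also ended with low genes kept (adjusted p = 0.0605) and with replicate 1 of MSC II (adjusted p = 0.052) or of MSC IV (adjusted p = 0.0527) left out. Rdh5, a retinol dehydrogenase of the eye, was above the low level in MSC IV alone, at 7.12 and 7.35. Adh5, the fifth gene with a called range, ranged over 1.09 log2 (adjusted p = 0.0294), a call that ended without either array of MSC V (adjusted p = 0.0535 and 0.0525), either array of MSC IV (adjusted p = 0.0531 and 0.125) or MSC I replicate 1 (adjusted p = 0.0602).

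Genes for uptake and storage were mostly low. Of 8 with a probe set, 6 never exceeded the low level on any array, among them the RBP4 receptor Stra6 (5.28 to 5.66), the plasma partner of RBP4, Ttr (4.98 to 5.17), and the retinol esterifying enzyme Lrat (5.11 to 5.26). Fabp5, a fatty acid binding protein that can carry retinoic acid, was lowest in MSC II, at 9.45 and 8.90, and differed by -1.82 ± 0.28 from the other four (adjusted p = 0.00579). Fabp5 had 2 probe sets under its own symbol, and only the one with the highest mean is given here. Its higher call in MSC I (1.05 ± 0.28, adjusted p = 0.02) ended with MSC I replicate 2 left out (0.76, adjusted p = 0.164), and its size fell under the minimum without MSC II replicate 2 (0.98), MSC III replicate 1 (0.95) or MSC V replicate 2 (0.95). The retinoic acid hydroxylases Cyp26a1 (4.57 to 4.74) and Cyp26c1 (5.16 to 5.44) were low on all 10 arrays, MSC I included. Cyp26a1 and Rarb thus both carried the 5-base spaced pair, and only Rarb was above the low level in any preparation.

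Of the receptors and cofactors 9 were tested and 2 differed, where 29.1% of all tested genes did. The receptor genes Rara (range 0.16 log2), Rarg (0.26) and Rxra (0.63) were above the low level on every array and were not called. Rxrb, which like Rxra encodes an RXR partner of the RAR receptors, was at 8.14 and 8.07 in MSC I and between 8.71 and 9.55 elsewhere (-1.02 ± 0.15, adjusted p = 0.00174). It was under the minimum when any of 4 arrays was left out, namely replicate 1 of MSC III (-0.96) and replicate 2 of MSC I (-0.99), MSC IV (-0.99) and MSC V (-0.98). Nrip1, a corepressor induced by retinoic acid, was at 9.33 and 9.27 in MSC I and between 7.70 and 8.53 elsewhere (1.09 ± 0.17, adjusted p = 0.00196). Its range missed the threshold with MSC I replicate 1 left out (adjusted p = 0.0555).

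The list of genes known to respond to retinoic acid had 18 entries, 15 of them with a probe set and 10 tested. Over the preparations 9 of the 10 differed, where 29.1% of all tested genes did, with a median range of 2.88 log2 against 0.75 for all genes. In MSC I 6 were higher (7.73% of all tested genes) and 1 lower (5.22%) than in the other four, with a median difference of 1.22 log2 against -0.034 over all genes. These counts include Rarres2, whose difference was already known, and Rarres2 and Ret passed the filter through MSC I alone. The list was made with earlier results of these data known, so nothing is read from the counts or the medians. For the same reason the p-values of its single genes are not independent evidence. Many of these genes respond to other signals too, and 5 listed genes, Hoxb1, Cdx1, Stra8, Cebpe and Rarres1, did not exceed the low level on any array.

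Rarres2, the chemoattractant chemerin, was at 12.07 and 11.22 in MSC I and between 5.38 and 6.39 elsewhere (5.77 ± 0.26). This difference was known when the lists were made and is given with no test. The thrombin cofactor Thbd was at 12.49 and 12.33 in MSC I and between 6.95 and 9.59 elsewhere (4.22 ± 0.25, adjusted p = 1.56e-05). Tissue transglutaminase, Tgm2, was at 9.99 and 10.76 in MSC I, and the next highest array was MSC V replicate 1 at 9.55 (2.34 ± 0.30, adjusted p = 0.000963). In all 3 genes the MSC I arrays stood above every other array.

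The receptor tyrosine kinase gene Ret was at 6.94 and 7.32 in MSC I and low elsewhere (1.88 ± 0.13), and was tested only through those arrays, so no p is given. The homeobox gene Meis2 was 1.31 ± 0.20 higher in MSC I (adjusted p = 0.00198) and the laminin chain gene Lamb1 1.14 ± 0.23 higher (adjusted p = 0.00653). Without MSC I replicate 2 these were 0.95 and 0.88, under the minimum. In both genes another preparation stood further apart, Meis2 in MSC V (-2.11 ± 0.20, adjusted p = 0.00138) and Lamb1 in MSC IV (-2.65 ± 0.23, adjusted p = 0.000263).

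Gprc5a, a membrane receptor gene induced by retinoic acid, went the other way. It was at 5.32 and 6.39 in MSC I and between 7.36 and 10.04 elsewhere (-2.75 ± 0.40, adjusted p = 0.0017). Meis1, Plat and Rai14 were not called in MSC I (-0.33, 0.92 and -0.30). Plat, the plasminogen activator, was called over the preparations (adjusted p = 0.0441) and so was Meis1 (adjusted p = 0.0381), calls that ended with low genes kept (adjusted p = 0.0868 and 0.0717). Without single arrays the adjusted p of Plat was above the threshold for MSC I replicate 1, both MSC III and both MSC IV arrays (0.0625 to 0.175). That of Meis1 was above it for both MSC I, both MSC II and both MSC V arrays and MSC III replicate 1 (0.0542 to 0.156).

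**Figure D4:**
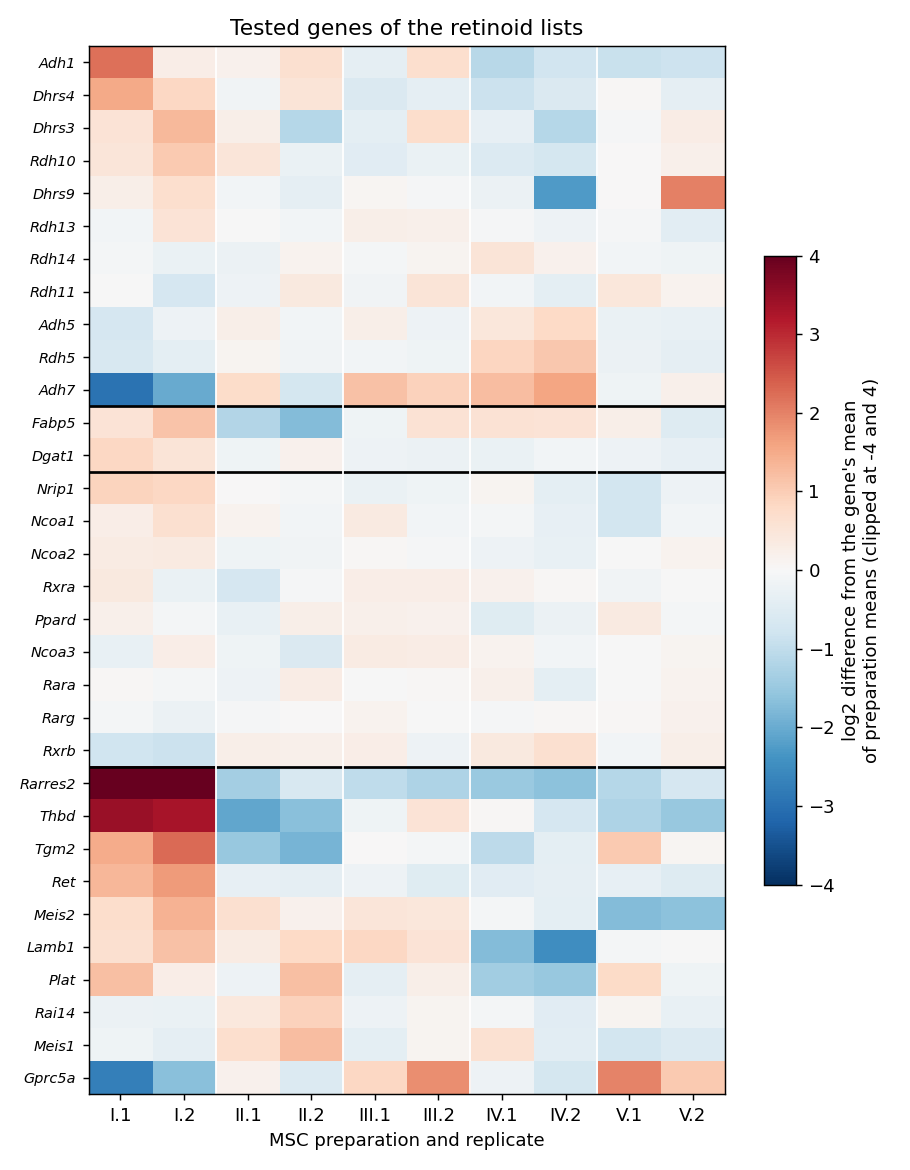
Log2 difference of each array (columns, preparation and replicate) from the gene's mean over the 5 preparations, for the 32 tested genes of the lists (rows), with black lines between oxidation and reduction, uptake and storage, receptors and cofactors, and responsive genes. The rows of Rarres2 and Thbd are the most strongly raised in MSC I, and those of Adh7 and Gprc5a the most strongly lowered.

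Other aldehyde dehydrogenases, which are not known mainly for retinal, were set beside the Aldh1a genes. Of 14 genes 11 were tested and 4 differed over the preparations, where 29.1% of all tested genes did, with a median range of 0.94 log2 against 0.75 for all tested genes. In MSC I, Aldh1l1 (adjusted p = 5.41e-05) and Aldh3b1 (1.19 ± 0.20, adjusted p = 0.00269) were higher and Aldh1l2, a mitochondrial folate enzyme, lower (-3.29 ± 0.53, adjusted p = 0.00252). Aldh1l1, a folate enzyme, was at 7.08 and 7.04 in MSC I and as high in MSC V, at 7.10 and 7.27, and between 4.78 and 5.25 elsewhere. The range calls of Aldh3b1 and Aldh1l2 ended without MSC I replicate 1 (adjusted p = 0.0549 and 0.0672).

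Markers of other cells were set beside these results. All 6 adipocyte markers with a probe set were higher in MSC I (7.73% of all tested genes were), 3 of them, Adipoq, Cd36 and Plin1, having passed the filter through MSC I alone, with an array mean of 11.21 to 11.75 against 6.52 to 7.48 on the other 8 arrays, and their part in the retinoid differences was not tested. Fewer cells of a type and less RNA per cell cannot be told apart in such bulk samples. Mesothelial markers, a cell type known for Aldh1a2, were low, with 5 of 6 under the low level on all arrays and a mean of 5.01 to 5.22 in MSC I against 5.08 to 5.63 elsewhere. Msln exceeded that level on 1 array, MSC V replicate 1, at 7.80. All 5 endothelial and 4 epithelial markers were low on every array, as were 7 of 8 macrophage and blood cell markers. Of the stromal markers Pdgfrb was between 10.83 and 12.33 on all arrays, and Pdgfra, Cd44, Itgb1 and Cxcl12 were also above the low level throughout. Vcam1 was above it except on MSC IV replicate 2 (6.46). Thy1 and Eng, often used to define such cells, were low on several arrays. These were MSC I, IV and V and 1 array of MSC III for Thy1, and all but MSC IV for Eng. Nt5e was low in MSC I and on MSC II replicate 2, and highest in MSC IV (10.75 and 11.66). Lepr was low in MSC I and MSC II and on MSC V replicate 2.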

How the data were processed

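Total RNA of 10 samples was hybridised to single-colour arrays. Per the submitters' processing notes, the authors used RMA and Partek, whose versions are not given in the sources used here, and the deposited values are log2 expression levels of 35399 probe sets. RMA corrects background, equalises array distributions and summarises probes, which compresses differences between low values. Groups came from the sample titles. Of the probe sets 21789 had 1 gene symbol in the platform annotation and were used, 1621 had several and 11989 had none. Of the used ones 21698 were updated through their gene identifier to RefSeq symbols (GRCm38.p6). A gene's probe set with the highest mean was kept, and genes with at least 2 arrays above the median of the table were tested (10971).

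One model held a mean for each preparation over all 10 arrays (limma 3.58.1, R 4.3.3, functions lmFit and eBayes), and promoter windows were searched and figures drawn in Python 3.11.15. The moderated F statistic tested all preparations, and contrasts tested each preparation against the other four, weighted equally, and each pair, two-sided, with Benjamini-Hochberg adjustment over genes. Calls needed an adjusted p under 0.05 and at least 1 log2. The members and the gene lists were chosen with earlier results of these data known. All members and listed genes could be named, with the 3 genes most correlated with each of the 3 members of widest range. The fit was tested on simulated data. Alternatives were no filter, a stricter filter (9.22 log2), averaging all probe sets per gene, median centring, further quantile normalisation, eBayes with a trend and robust variance, a block for the replicate number, and each array left out. Leaving MSC I out of the fit was added after seeing the data.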

Additional observations from a re-analysis of the deposited data

How the results depend on the processing

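The differences of MSC I from the other four kept direction and call under all alternatives for Rbp4 (4.01 to 5.07 log2) and Crabp2 (-3.38 to -3.23). As descriptions, the differences of Aldh1a2 were 6.04 to 6.90, of Aldh1a7 5.01 to 5.52 and of Rarb 2.50 to 2.62. Rarb was not tested with the stricter filter or without either MSC I array. No called value of a member or listed gene changed sign. With the stricter low-value filter the counts of called genes were 1861 over all preparations and 853, 327, 128, 771 and 223 for MSC I to MSC V against the other four, where the main counts were 3192, 1421, 564, 249, 1206 and 390; fewer genes, 6940, were tested there. Without MSC I in the fit, 1667 genes and 8 retinoid list genes were called over the remaining preparations, against 17 list genes in the main fit. Leaving out single arrays gave 295 to 560 called genes for MSC II, 76 to 238 for MSC III, 702 to 1314 for MSC IV and 187 to 383 for MSC V, the lowest for MSC II without its replicate 2, MSC III without its replicate 2, MSC IV without its replicate 2 and MSC V without its replicate 1.

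With the replicate block 2724 genes and 14 retinoid list genes were called over all preparations. The deviations of same-numbered arrays correlated over genes at r = -0.55 to 0.20, above 0.1 in 1 of 10 pairs of preparations. The replicate number thus marked no deviation common to all preparations. The r was positive for MSC II with MSC III alone (0.20). It was lowest for MSC I with MSC II (-0.55), followed by MSC III with MSC V (-0.51). Deviations within a preparation mirror each other, so a negative r means that arrays of different number deviated alike. The p-values treat the arrays as independent, which these values do not show. The source of this shared variation was not tested.

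In 17 alternatives the call of Crabp1 in MSC V against the other four was lost 6 times (lowest difference 1.03 without MSC V replicate 1). The lower call of Aldh1a7 in MSC III, a gene tested only because of its MSC I arrays, was lost 10 times in 17. The retinoid list count lay between 12 and 17 without single arrays. A level under 6.55 log2 does not show absence of a transcript.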
